A study of Mus musculus with 12 samples.

Results

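The genes described here are the tumour necrosis factor (TNF) superfamily ligands, their receptors, and the adaptors, kinases and ubiquitin ligases that carry the receptor signal, measured in macrophages and monocytes sorted from the mouse heart before and after injury. Members were the rows of the deposited table whose symbol is Tnf, begins with Tnfsf or Tnfrsf and a number, or is Traf1 to Traf7, Birc2, Birc3, Ripk1 to Ripk4, Tradd, Fadd, Fas, Cd40, Cd27 or Ltbr. The rule matched 46 of 14460 genes: 10 ligands, 22 receptors, and 14 adaptors and kinases. They carry 45 distinct symbols, because Tnfrsf22 stands on 2 Ensembl identifiers. Of the 46, 40 had a mean signal of at least 1 over all libraries and were tested (9 ligands, 17 receptors and 14 adaptors and kinases). Just inside this minimum lay Traf4 at a mean signal of 1.40 and Tnfrsf17 at 1.53, and just outside it Tnfrsf18 at 0.928 and Tnfrsf8 at 0.881.

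RNA sequencing was performed on GFP+ cells from hearts of Cx3cr1GFP/+ mice aged 2-3 months, a knock-in strain in which GFP marks cells that use the chemokine receptor gene Cx3cr1. The strain was common to all groups, so every cell source carried the knock-in allele. The day 0 group came from uninfarcted hearts of animals without surgery, sorted as Ly6clow/CX3CR1high. The day 3 group came from hearts 3 days after cryoinjury, a freezing lesion of the heart wall that models myocardial infarction, and was sorted as Ly6chigh/CX3CR1low, the gate of inflammatory monocytes. The day 7 and day 30 groups were taken 7 and 30 days after cryoinjury and sorted as Ly6clow/CX3CR1high. Each group had 3 libraries, which the labels call independent biological replicates; whether a library pooled animals is not given in the sources used here. No operated animals without cryoinjury were analysed here. In every comparison with day 3, time after injury and sorting gate cannot be told apart.

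TNF superfamily ligands are mostly membrane proteins that act as trimers, some of them also after being cut from the cell surface, and bind receptors of the TNF receptor superfamily. Receptors with a death domain, such as TNFR1 and Fas, recruit Tradd or Fadd and the kinase Ripk1, while others bind TRAF proteins, which together with the ubiquitin ligases cIAP1 (Birc2) and cIAP2 (Birc3) start NF-kB and MAP kinase signalling. When caspase 8 is not active, Ripk1 and Ripk3 can drive necroptosis, a lytic cell death carried out by Mlkl. In the injured heart, monocytes and macrophages are known sources of TNF.

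Levels are given as signal, the deposited normalised read count, with SD over 3 libraries where a mean is printed. Differences are log2 fold changes of signal + 1 with their standard error (SE) over 3 against 3 libraries, tested with limma across the 12879 genes whose signal averaged 1 or more and adjusted by the Benjamini-Hochberg method, with 0.05 as the threshold. Adding 1 makes the fold change of a gene with a low signal smaller than its ratio of signals. In sorted bulk samples, fewer cells of a type and less RNA per cell cannot be told apart.

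Depth ran from 5828904 to 13199576 reads per library. A gene without a read may still have had up to 3 reads there, which is worth 0.190 to 0.543 of signal depending on the library (counting error only). The 3 day 30 libraries were closely alike: their log2 values correlated at r = 0.990 to 0.9931 across genes, and their reads differed by a chi-square of 2.16 to 2.88 per gene, against 5.82 to 82.8 between libraries of the other groups. They differed by more than the sampling of reads, which does not show whether they came from separate animals. As the labels call them independent biological replicates, they were counted as 3 samples. The adjusted p with day 30 as 1 sample is given beside each call at day 30 that it ended. Limma then assumes that the lone sample varies like the other groups. The summed signal of 10 monocyte and macrophage markers was 9553 to 20062 in every library. Sums for other cell types were lower: 42.4 to 2246 for 10 fibroblast markers, with the second day 7 library at the top, 6.49 to 207 for 11 T and NK cell markers, 8.03 to 70.7 for 5 B cell markers, 4.39 to 92.7 for 4 neutrophil markers, and 7.32 to 174 for 9 cardiomyocyte markers. Early response genes, a list of 13 added after the data were seen (Fos, Egr1, Atf3 and others that cells induce rapidly when stimulated), summed to 4668 in the first day 0 library, 1610 and 1929 in the other day 0 libraries, 2981 to 4038 at day 3, 1274 to 1628 at day 7 and 5065 to 5241 at day 30.

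Upstream sequence of the members was searched as a description only, without a test. RefSeq (GRCm38.p6) holds 42 promoters for 37 of the 46 members. The 250 bases before each start site were scanned on both strands for the NF-kB consensus, the AP-1 core TGANTCA and the core of the interferon-stimulated response element (GAAA, any 2 bases, GAAA). Of all 32851 promoters, 3.9% held the first, 6.75% the second and 2.98% the third. The NF-kB consensus was found in 3 members (Traf3, Tnfrsf8 and Tnfrsf9), the interferon-stimulated core in 4 (Tnfrsf1b, Tnfsf13b, Tnfrsf14 and Tnfrsf17) and the AP-1 core in 6 (Fas, Tnfrsf8, Tnfrsf9, Tnfsf13, Tnfsf13b and Tnfsf14). Windows are shown for 2 ligands without a match, Tnf and Tnfsf10, and for 4 members with one, which lies in capitals in the sequence; Tnfsf13b carries the AP-1 core first and the interferon-stimulated core nearer the start site. In Tnfrsf1b the capitals mark the reverse complement of the core.
Tnf, chr17:35202008-35202127, minus strand: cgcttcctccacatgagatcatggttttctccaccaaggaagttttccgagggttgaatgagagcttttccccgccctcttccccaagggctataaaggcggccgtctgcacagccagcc
Tnfsf10, chr3:27316957-27317076, plus strand: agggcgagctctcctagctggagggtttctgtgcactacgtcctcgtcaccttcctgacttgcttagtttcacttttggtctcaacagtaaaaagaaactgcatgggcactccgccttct
Tnfsf14, chr17:57194302-57194371, minus strand: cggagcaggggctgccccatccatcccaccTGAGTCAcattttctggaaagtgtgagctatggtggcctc
Tnfsf13b, chr8:10006483-10006632, plus strand: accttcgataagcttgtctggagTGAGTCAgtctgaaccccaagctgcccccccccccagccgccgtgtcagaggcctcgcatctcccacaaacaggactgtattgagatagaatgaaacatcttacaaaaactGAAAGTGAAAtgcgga
Traf3, chr12:111166310-111166369, plus strand: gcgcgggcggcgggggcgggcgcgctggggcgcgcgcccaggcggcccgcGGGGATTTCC
Tnfrsf1b, chr4:145246871-145246930, minus strand: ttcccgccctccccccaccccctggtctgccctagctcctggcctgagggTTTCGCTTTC
These matches are descriptions of letters in a window. The absence of a match says only that these letters are not in that window.

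At day 3 against day 0, 21 of 40 tested members passed, against 44.2% of all genes tested, with 16 higher and 5 lower against 22.1% and 22.1% of all genes. The groups did not overlap in 27 members, against 55.4% of all genes. The median log2 fold change of the 40 was 0.495, beside -0.019 over all genes tested. Of the 21 that passed, 7 were ligands (4 higher and 3 lower), 7 were receptors (5 higher and 2 lower), and 7 were adaptors or kinases, all higher; by class 77.8%, 41.2% and 50% passed. At day 7 against day 3, 21 members passed, against 46.8% of all genes, with 4 higher (23.3% of all genes) and 17 lower (23.5%). The groups did not overlap in 23 members, against 50.9% of all genes. This comparison uses the same day 3 libraries as the one before, so where a member passed both, the results are given together.

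At day 7 against day 0, 11 members passed, against 21.6% of all genes, with 5 higher (11.4% of all genes) and 6 lower (10.2%); the groups did not overlap in 14 members, against 32.2% of all genes. At day 30 against day 0, 4 members passed, against 6.18% of all genes, and all 4 were higher (3.45% of all genes were higher and 2.73% lower). The groups did not overlap in 18 members, against 40.8% of all genes. At day 30 against day 7, 17 members passed, against 39.6% of all genes, with 11 higher (19.7%) and 6 lower (19.9%); the groups did not overlap in 26 members, against 55.3% of all genes. The counts against day 0 moved with single libraries. At day 30 the count of all genes moved as well, as given in the last section. At day 7, 7 members passed without the second day 0 library or any day 30 library, and 6 without the third day 0 or the second day 7 library. At day 30, 1 member passed without the second or the third day 0 library or the first or the third day 30 library, 2 without the third day 3 or the second day 30 library, and 8 without the second day 7 library. In the test over all 4 groups 28 of 40 members passed, against 63.9% of all genes. Of these 28, 19 had their highest mean at day 3, 4 at day 30, 3 at day 0 and 2 at day 7. The shares of all genes by day of highest mean were not counted, so this split is a description only.

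**Figure D1:**
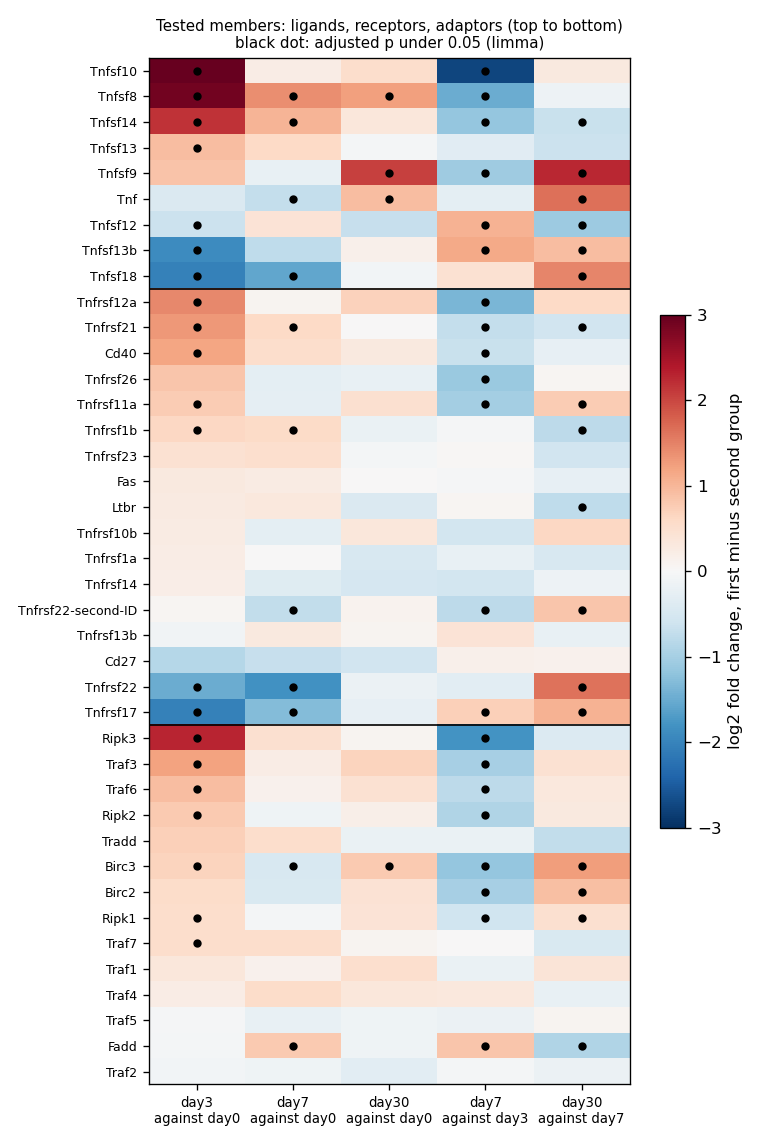
Log2 fold change of signal + 1 for the 40 tested members (rows, ligands above receptors above adaptors and kinases) in 5 comparisons (columns), first group minus second; a black dot marks an adjusted p under 0.05 by limma. The day 3 column holds 16 dots on red and 5 on blue, and the day 30 against day 0 column holds 4 dots, all on red.

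Among the ligands, Tnfsf10 (TRAIL), which binds death receptors, had the largest log2 fold change of signal + 1 at day 3, a scale that understates the changes of the ligands with low signal. Tnfsf10 (chromosome 3, 27317028 to 27342427, plus strand, GRCm38) was at a signal of 3.56, 7.97 and 9.42 in the day 0 libraries, 45.9, 65.4 and 65.8 at day 3, 5.75, 6.70 and 12.3 at day 7, and 7.88, 10.3 and 11.7 at day 30. All day 3 libraries lay above all others, and the other groups overlapped. Tnfsf10 rose by 2.98 ± 0.31 at day 3 against day 0 (limma, adjusted p = 1.6e-06) and fell by 2.74 ± 0.31 from day 3 to day 7 (adjusted p = 6e-06). Its day 7 and day 30 levels did not differ from day 0 beyond the threshold.

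Tnfsf8 (CD30 ligand), a costimulatory ligand, lies on chromosome 4 (63831308 to 63861347, minus strand). It was at a signal of 0.264, 0.839 and 0.724 at day 0, 12.6, 11.5 and 8.60 at day 3, 2.88, 1.62 and 6.13 at day 7, and 2.50, 3.53 and 2.35 at day 30. The day 0 libraries lay below every other library, and the day 7 and day 30 libraries overlapped. In reads, Tnfsf8 had 14 at day 0, 294 at day 3, 75 at day 7 and 94 at day 30. Tnfsf8 rose by 2.89 ± 0.33 at day 3 against day 0 (limma, adjusted p = 3.9e-06) and by 1.39 ± 0.33 at day 7 against day 0 (adjusted p = 0.0077). It was also higher at day 30 than at day 0, by 1.24 ± 0.33 (adjusted p = 0.036). That last call was lost without any 1 of 8 libraries (the 3 of day 0, the 3 of day 30 and the second and the third of day 3), with adjusted p of 0.0505 to 0.161, and with day 30 as 1 sample (0.667).

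Tnfsf14 (LIGHT), a ligand of the lymphotoxin beta receptor and of HVEM (Tnfrsf14), lies on chromosome 17 (57189492 to 57194177, minus strand). Its signal was 0.792, 1.05 and 0.181 at day 0, 6.90, 5.67 and 6.49 at day 3, 2.42, 2.31 and 2.19 at day 7, and 1.01, 0.989 and 1.2 at day 30. The day 3 libraries were highest and the day 7 libraries stood between them and the rest. Tnfsf14 rose by 2.17 ± 0.26 at day 3 against day 0 (limma, adjusted p = 5.8e-06), was still higher at day 7 by 1.02 ± 0.26 (adjusted p = 0.011), and fell by 1.15 ± 0.26 from day 3 to day 7 (adjusted p = 0.002). The call at day 7 against day 0 was lost without the third day 0 library (0.79, adjusted p = 0.0509). From day 7 to day 30 Tnfsf14 fell by 0.68 ± 0.26 (adjusted p = 0.046), a call lost without any 1 of the 9 libraries of day 3, day 7 and day 30 (adjusted p = 0.0536 to 0.118), by edgeR (0.058) and with day 30 as 1 sample (0.322).

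Tnfsf13 (APRIL), a ligand of BCMA and TACI, was at 5.02, 13.3 and 8.69 at day 0, 13, 21 and 17.5 at day 3, 12.9, 15.3 and 11.7 at day 7, and 7.95, 8.20 and 8.05 at day 30. The day 0 and day 3 libraries overlapped. Tnfsf13 was higher at day 3 by 0.92 ± 0.27 (limma, adjusted p = 0.011), a call lost without the first day 0 library (0.60, adjusted p = 0.0577) or the second day 3 library (0.77, adjusted p = 0.0592). Of its exon length, 60% is shared with the readthrough gene Tnfsfm13 on the same strand, so reads of these genes may not be told apart.

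Another 3 ligand genes were lower at day 3. Tnfsf13b (BAFF), the B cell survival factor that binds BAFF receptor, TACI and BCMA, was at 2.51, 4.82 and 3.62 at day 0, 0.0958, 0.472 and 0.132 at day 3, 2.42, 1.16 and 1.61 at day 7, and 3.74, 4.10 and 4.44 at day 30. All day 3 libraries lay below all others, with 6 reads together against 85 at day 0. Tnfsf13b fell by 1.90 ± 0.28 at day 3 against day 0 (limma, adjusted p = 4.6e-05), and was higher at day 7 than at day 3 by 1.13 ± 0.28 (adjusted p = 0.0036). It was also higher at day 30 than at day 7, by 0.92 ± 0.28 (adjusted p = 0.016), which was lost without the second day 7 library (0.77, adjusted p = 0.0542) or the third day 30 library (0.88, 0.0618), and with day 30 as 1 sample (0.216). The summed B cell markers ran from 13.3 to 18.6 at day 0, 8.03 to 17.3 at day 3 and 44.5 to 70.7 at day 7; their part in the BAFF levels was not tested.

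Tnfsf18 (GITR ligand), a costimulatory ligand of T cells, was at 3.83, 3.88 and 2.90 at day 0, 0.0958, 0 and 0.265 at day 3, 1.06, 0.347 and 0.292 at day 7, and 2.89, 3.53 and 3.36 at day 30. Day 0 and day 30 lay apart from day 3 and day 7. The 82 reads of day 0 stood against 3 reads at day 3, a depth-corrected ratio of 31.95 with a 95% counting interval of 10.6 to 158. Tnfsf18 fell by 2.02 ± 0.27 at day 3 (limma, adjusted p = 1.9e-05) and by 1.56 ± 0.27 at day 7 (adjusted p = 0.00082) against day 0, and was higher at day 30 than at day 7 by 1.47 ± 0.27 (adjusted p = 0.00079; 0.0606 with day 30 as 1 sample).

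Tnfsf12 (TWEAK), the ligand of Fn14, was at 54.1, 56.6 and 57.6 at day 0, 34.1, 29.0 and 45.0 at day 3, 60.6, 107 and 64.1 at day 7, and 38.8, 31.8 and 33.0 at day 30. Every day 0 library lay above every day 3 library. Tnfsf12 fell by 0.65 ± 0.21 at day 3 against day 0 (limma, adjusted p = 0.02), was higher at day 7 than at day 3 by 1.05 ± 0.21 (adjusted p = 0.00081), and fell by 1.10 ± 0.21 from day 7 to day 30 (adjusted p = 0.0011; 0.0581 with day 30 as 1 sample). The first of these calls was lost without the second (adjusted p = 0.0517) or the third (0.0557) day 0 library, or without the first (0.0508) or the second (0.0962) day 3 library. At day 30 against day 0 Tnfsf12 did not pass, at -0.69 ± 0.21 (limma, adjusted p = 0.062). Tnfsf12 shares 48.3% of its exon length with Tnfsfm13.

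**Figure D2:**
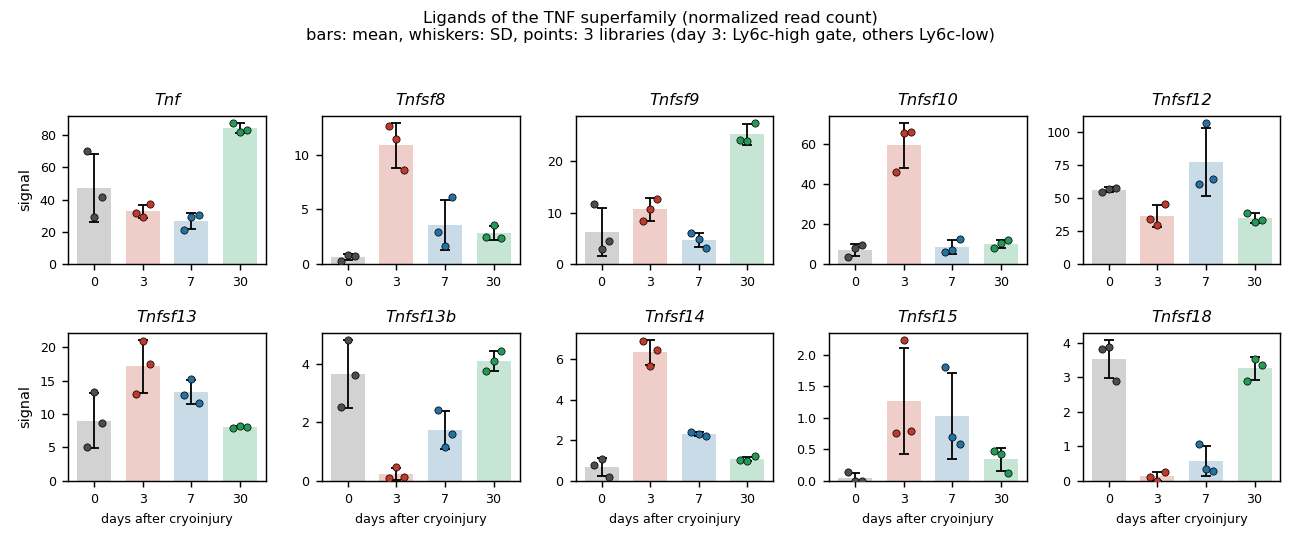
Signal (normalised read count, vertical axis) of the 10 ligand genes by days after cryoinjury (horizontal axis); bars are means of 3 libraries, whiskers SD and points libraries. Tnfsf10, Tnfsf8 and Tnfsf14 are highest at day 3, Tnfsf13b and Tnfsf18 lowest there, and Tnf and Tnfsf9 highest at day 30.

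Tnf and Tnfsf9 were highest at day 30. Tnf, the founding cytokine of the family (chromosome 17, 35199381 to 35202007, minus strand), was at 70.4, 28.9 and 41.5 at day 0, 31.5, 29.2 and 37.3 at day 3, 20.7, 29.1 and 30.2 at day 7, and 88.0, 82.1 and 83.7 at day 30. The 3 day 30 libraries lay above all 9 others, while day 0, day 3 and day 7 overlapped and the first day 0 library stood above the other day 0 libraries. Tnf rose by 1.65 ± 0.25 from day 7 to day 30 (limma, adjusted p = 0.00021), a call kept without each library in turn. Against day 0, Tnf was higher at day 30 by 0.93 ± 0.25 (adjusted p = 0.037) and lower at day 7, at -0.72 ± 0.25 (adjusted p = 0.049). At day 3 it did not pass, with -0.42 ± 0.25 (adjusted p = 0.18).

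The Tnf comparisons with day 0 moved with single libraries. At day 3, Tnf differed by -0.09 without the first day 0 library (adjusted p = 0.749) and by -0.72 without the second (0.0232, which passes). The day 30 call was lost without the second (0.64, adjusted p = 0.164) or the third (0.89, 0.114) day 0 library, without the third day 3 library (0.0512), without any day 30 library (0.116 to 0.13), by edgeR (0.0532) and with day 30 as 1 sample (0.679). Without the first day 0 library the day 30 difference was 1.26 (adjusted p = 0.00156). The day 7 call was lost without that library (-0.38, adjusted p = 0.207) and without 9 others, every library but the second of day 0 and the third of day 7.

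Tnfsf9 (4-1BB ligand), a costimulatory ligand (chromosome 17, 57105325 to 57107757, plus strand), was at 11.6, 2.83 and 4.35 at day 0, 8.33, 10.7 and 12.7 at day 3, 5.90, 4.86 and 3.07 at day 7, and 24.2, 24 and 27.6 at day 30. Every day 30 library stood above every other library. The first day 0 library was again above the other day 0 libraries and within the day 3 range. Tnfsf9 rose by 2.04 ± 0.34 at day 30 against day 0 (limma, adjusted p = 0.0033) and by 2.26 ± 0.34 against day 7 (adjusted p = 0.00024), both kept without each library in turn. The first of these was lost with day 30 as 1 sample (adjusted p = 0.258). At day 3 against day 0 it did not pass, at 0.85 ± 0.34 (adjusted p = 0.058), and passed without the first day 0 library at 1.34 (adjusted p = 0.001); without the second it was 0.48 (0.277). It fell by 1.06 ± 0.34 from day 3 to day 7 (adjusted p = 0.02), lost without the second or the third day 3 library or the third day 7 library (adjusted p = 0.0527, 0.0753 and 0.0795). A noncoding gene on the opposite strand, Gm11110, overlaps 14.9% of the exon length of Tnfsf9, and strand use in counting is not given in the sources used here.

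Tnfsf15 (TL1A) was below the minimum mean signal, with 1 read at day 0, 33 at day 3, 22 at day 7 and 11 at day 30, and was not tested.

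Among the receptors, Tnfrsf1b had the highest mean signal per exon length at all 4 times. Per kilobase of exon, the mean signal at days 0, 3, 7 and 30 was 39.55, 61.6, 60.8 and 34.3 for Tnfrsf1b (TNFR2), 29.5, 35.3, 29.7 and 20.8 for Tnfrsf1a (TNFR1), and 20.1, 33.5, 16.75 and 27.6 for Tnfrsf11a (RANK). On the same scale the ligand Tnfsf12 was at 37.0, 23.8, 51.0 and 22.8 and Tnf at 28.6, 19.9, 16.3 and 51.6. Tnfrsf13b (TACI) followed at 12.8 to 17 per kilobase and Tnfrsf21 at 10.5 to 26.4, and every other receptor with an annotated length was under 10 at all times.

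Tnfrsf1a, the death domain receptor for TNF found on most cells, was at 75.1, 65.4 and 88.6 at day 0, 60.9, 108 and 105 at day 3, 65.9, 94.0 and 71.0 at day 7, and 55.1, 54.1 and 52.4 at day 30. The day 30 libraries were the lowest, and the other groups overlapped. Tnfrsf1a passed no comparison of 2 groups (limma, adjusted p = 0.071 to 0.99) and passed the test over 4 groups (adjusted p = 0.0399).

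Tnfrsf1b, the TRAF-binding receptor for TNF of leukocytes and endothelium, was at 139, 161 and 154 at day 0, 182, 253 and 271 at day 3, 199, 308 and 189 at day 7, and 131, 133 and 129 at day 30. All day 3 and day 7 libraries lay above all day 0 and day 30 libraries. Tnfrsf1b was higher than at day 0 by 0.62 ± 0.19 at day 3 (limma, adjusted p = 0.015) and by 0.58 ± 0.19 at day 7 (adjusted p = 0.038), and it fell by 0.78 ± 0.19 from day 7 to day 30 (adjusted p = 0.0048; 0.125 with day 30 as 1 sample). The day 3 call was lost without the second (0.55, adjusted p = 0.058) or the third (0.50, 0.0765) day 3 library and with quantile normalisation (0.20, 0.414). The day 7 call was lost without any 1 of 7 libraries, those of day 0 and day 30 and the second of day 7 (0.36, adjusted p = 0.118).

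Tnfrsf21 (DR6), a death domain receptor, gave the smallest adjusted p among the receptors at day 3. Its signal was 46.7, 38.0 and 44.6 at day 0, 89.9, 116 and 120 at day 3, 57.4, 66.7 and 72.5 at day 7, and 42.1, 45.7 and 41.8 at day 30. Day 3 lay above day 7, and day 7 above both other groups, with no overlap. Tnfrsf21 rose by 1.31 ± 0.15 at day 3 (limma, adjusted p = 5.5e-06) and was higher at day 7 by 0.59 ± 0.15 (adjusted p = 0.014) against day 0. It fell by 0.71 ± 0.15 from day 3 to day 7 (adjusted p = 0.0015) and by 0.58 ± 0.15 from day 7 to day 30 (adjusted p = 0.008; 0.168 with day 30 as 1 sample). The call at day 7 against day 0 was lost without the second day 0 library (0.51, adjusted p = 0.0626), and the fall from day 3 to day 7 with quantile normalisation (-0.38, 0.0503).

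Cd40, the costimulatory receptor of antigen-presenting cells, was at 11, 14 and 16.1 at day 0, 24, 37.8 and 37.2 at day 3, 15.1, 26.4 and 20.2 at day 7, and 17.7, 14.4 and 18.7 at day 30. The day 3 libraries lay above all day 0 and day 30 libraries and overlapped day 7. Cd40 rose by 1.2 ± 0.23 at day 3 (limma, adjusted p = 0.00063). It fell by 0.66 ± 0.23 from day 3 to day 7 (adjusted p = 0.028), a call lost without the second (0.11) or the third (0.106) day 3 library or the first (0.119) or the third (0.0538) day 7 library, each given as adjusted p.

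Tnfrsf12a (Fn14), the receptor of TWEAK, was at 5.68, 2.31 and 2.17 at day 0, 8.53, 11.6 and 11 at day 3, 4.39, 4.62 and 1.75 at day 7, and 5.85, 5.94 and 5.07 at day 30. The day 3 libraries lay above all others. Tnfrsf12a rose by 1.45 ± 0.32 at day 3 (limma, adjusted p = 0.0018) while its ligand Tnfsf12 was lower, and fell by 1.37 ± 0.32 from day 3 to day 7 (adjusted p = 0.0028).

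Tnfrsf11a, the receptor of RANK ligand in the osteoclast lineage, was at 155, 101 and 105 at day 0, 214, 174 and 214 at day 3, 130, 71.8 and 99.0 at day 7, and 157, 173 and 165 at day 30. Day 3 lay above day 0 and day 7, which overlapped each other. Tnfrsf11a rose by 0.76 ± 0.20 at day 3 (limma, adjusted p = 0.0072), fell by 1.03 ± 0.20 from day 3 to day 7 (adjusted p = 0.00086) and was higher at day 30 than at day 7 by 0.75 ± 0.20 (adjusted p = 0.0098; 0.161 with day 30 as 1 sample). Quantile normalisation ended the day 3 call (0.33, adjusted p = 0.211).

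Tnfrsf17 (BCMA), the plasma cell receptor for BAFF and APRIL, had no read in any day 3 library. Its signal was 3.56, 2.73 and 2.90 at day 0, 1.06, 0.347 and 0.584 at day 7, and 2.34, 2.12 and 2.73 at day 30. Against the mean floor of 3 reads per library, the day 3 level was at least 8.84-fold lower than day 0 and at least 6.92-fold lower than day 30. Tnfrsf17 was lower than at day 0 at day 3 (limma, adjusted p = 1.3e-05) and at day 7, by -1.30 ± 0.26 (adjusted p = 0.0024), and was higher at day 30 than at day 7 by 1.05 ± 0.26 (adjusted p = 0.0055; 0.145 with day 30 as 1 sample). It was also higher at day 7 than at day 3 (adjusted p = 0.033). That call was lost without any 1 of 6 libraries: the 3 of day 3, the first of day 7 (0.105), or the first or the third of day 30. B cell marker sums were 8.03 to 17.3 at day 3 and were largest, at 44.5 to 70.7, at day 7, where Tnfrsf17 was below day 0.

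Tnfrsf22 (DcTRAILR2), a mouse decoy receptor for TRAIL, was at 4.62, 5.03 and 7.97 at day 0, 1.82, 0.944 and 1.46 at day 3, 0.151, 2.20 and 0.876 at day 7, and 3.98, 3.82 and 7.73 at day 30. Day 0 and day 30 lay above day 3 and day 7 with no overlap. Tnfrsf22 fell by 1.5 ± 0.36 at day 3 (limma, adjusted p = 0.0034) and by 1.82 ± 0.36 at day 7 (adjusted p = 0.0025) against day 0, and rose by 1.64 ± 0.36 from day 7 to day 30 (adjusted p = 0.0028; 0.0679 with day 30 as 1 sample). The row with the same symbol and another identifier, which the annotation used here does not hold, behaved otherwise: 34.7, 45.1 and 55.4 at day 0, 63.8, 41.7 and 37.5 at day 3, 33.5, 18.6 and 29.2 at day 7, and 45.1, 52.0 and 45.3 at day 30. It passed at day 7 against day 0, at day 7 against day 3 and at day 30 against day 7 (limma, adjusted p = 0.04, 0.013 and 0.013). Leaving out the second day 7 library ended all 3 calls of this Tnfrsf22 row (adjusted p = 0.144, 0.0513 and 0.0554). The first was also lost without the second or the third day 0 library or any day 30 library (0.0547 to 0.151), the second without the first day 3 library (0.07), and the third without the second day 30 library (0.0536) or with day 30 as 1 sample (0.178).

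The neighbouring genes Tnfrsf26 and Tnfrsf23 encode other mouse receptors of this cluster on chromosome 7. Tnfrsf26 was at 1.98, 2.41 and 2.90 at day 0, 4.98, 5.19 and 5.03 at day 3, 0.454, 3.01 and 2.78 at day 7, and 1.95, 1.98 and 1.84 at day 30. Its day 3 libraries lay above all others. Tnfrsf26 fell by 1.12 ± 0.33 from day 3 to day 7 (limma, adjusted p = 0.012; -0.64 without the first day 7 library) and did not pass at day 3 against day 0, at 0.83 ± 0.33 (adjusted p = 0.051).

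Ltbr, the lymphotoxin beta receptor, was at 14.1, 13.8 and 12 at day 0, 15.6, 17.7 and 15.4 at day 3, 12.1, 29.4 and 13.3 at day 7, and 8.19, 11.2 and 9.57 at day 30. It fell by 0.76 ± 0.26 from day 7 to day 30 (limma, adjusted p = 0.032). This call was lost without the second day 7 library (-0.37, adjusted p = 0.123) or the first (0.114) or the third (0.0812) day 30 library, with day 30 as 1 sample (0.258) and with quantile normalisation (0.0557). The second day 7 library also held the group's highest Fadd, Tnfsf12 and Tnfrsf1b and a fibroblast marker sum of 2246, against 573 and 797 in the other day 7 libraries; the part of those cells in these values was not tested.

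Fas, the death receptor of Fas ligand, was at 3.70, 4.30 and 4.89 at day 0, 5.27, 4.96 and 6.22 at day 3, 3.94, 4.74 and 7.74 at day 7, and 4.68, 3.96 and 4.25 at day 30. It passed no test (4-group test by limma, adjusted p = 0.518). Tnfrsf13b (TACI) at 30.9 to 52.4, Tnfrsf10b (the TRAIL receptor DR5) at 4.09 to 10.7, Tnfrsf14 (HVEM) at 2.81 to 8.38, Tnfrsf23 at 4.06 to 9.08 and Cd27 at 0.347 to 2.72 also passed no test. The receptors Tnfrsf13c, Tnfrsf18, Tnfrsf25, Tnfrsf8 and Tnfrsf9 were below the minimum mean signal, at 0 to 2.66 in every library. Tnfrsf25 (DR3), the receptor of TL1A, had 19 reads at day 0 and 1 at day 3, a depth-corrected ratio of 22.2 with a 95% counting interval of 3.53 to 923.

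**Figure D3:**
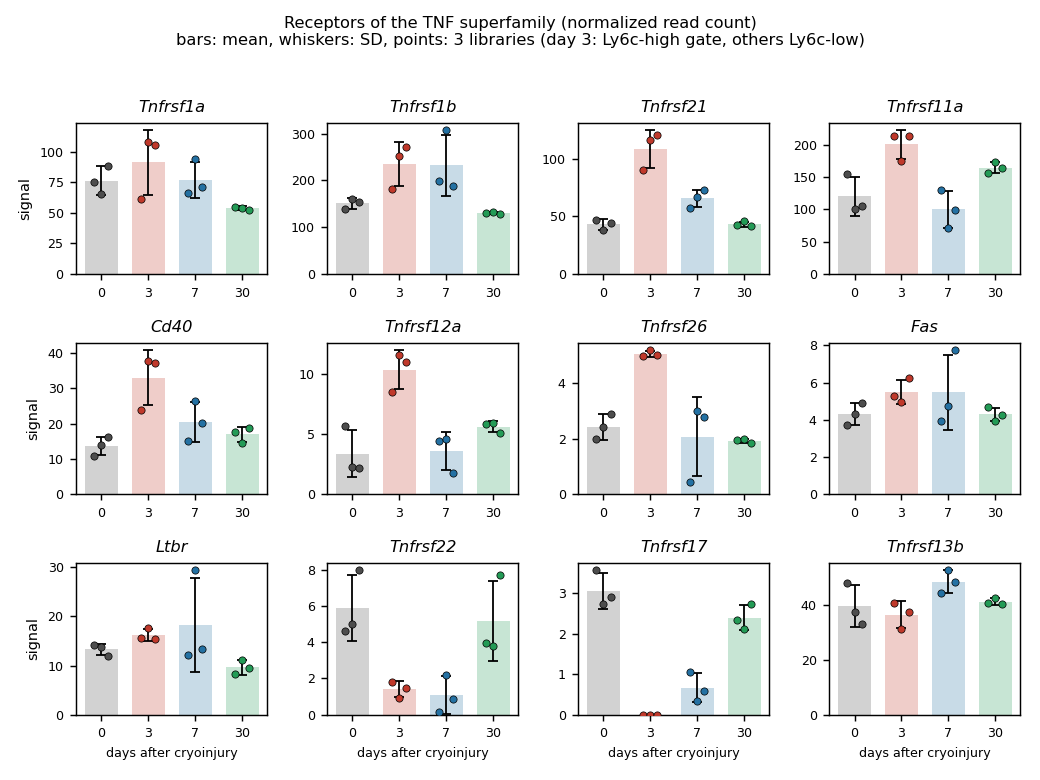
Signal (normalised read count, vertical axis) of 12 receptor genes by days after cryoinjury (horizontal axis); bars are means of 3 libraries, whiskers SD and points libraries. Tnfrsf21, Cd40 and Tnfrsf12a are highest at day 3, and Tnfrsf17 has no read there.

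Of the adaptors and kinases, 7 of 14 (50%) were higher at day 3 and none lower, against 44.2% of all genes called in either direction and 22.1% higher. Ripk3, the kinase that phosphorylates Mlkl in necroptosis (chromosome 14, 55784995 to 55788865, minus strand), had the largest log2 fold change. Its signal was 6.20, 3.15 and 3.26 at day 0, 20.5, 21.6 and 29.1 at day 3, 4.69, 8.90 and 5.26 at day 7, and 3.82, 5.37 and 3.99 at day 30. The day 3 libraries lay far above all others, which overlapped. Ripk3 rose by 2.28 ± 0.27 at day 3 (limma, adjusted p = 7.1e-06) and fell by 1.79 ± 0.27 from day 3 to day 7 (adjusted p = 9.8e-05).

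Ripk1, the kinase shared by survival and death signalling of TNFR1, was at 55.0, 51.2 and 44.4 at day 0, 69.3, 69.4 and 80.0 at day 3, 50.6, 41.3 and 52.0 at day 7, and 68.6, 66.0 and 64.7 at day 30. Day 3 and day 30 lay above day 0 and day 7 without overlap. Ripk1 rose by 0.53 ± 0.14 at day 3 (limma, adjusted p = 0.007), fell by 0.60 ± 0.14 from day 3 to day 7 (adjusted p = 0.0033), and was higher at day 30 than at day 7 by 0.47 ± 0.14 (adjusted p = 0.018). At day 30 against day 0 it did not pass, at 0.40 ± 0.14 (adjusted p = 0.11). The day 30 against day 7 call of Ripk1 was lost without any day 30 library (adjusted p = 0.0504 to 0.0685) and with day 30 as 1 sample (0.241). Quantile normalisation ended the day 3 against day 0 call (0.24, 0.168) and the fall from day 3 to day 7 (-0.34, 0.0567).

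Ripk2, the kinase that acts below NOD receptors, was at 16.4, 15.8 and 12.5 at day 0, 21, 29.0 and 29.4 at day 3, 13.6, 13.4 and 13.6 at day 7, and 16.1, 15.4 and 19.5 at day 30. The day 3 libraries lay above all others. Ripk2 rose by 0.78 ± 0.18 at day 3 (limma, adjusted p = 0.0027) and fell by 0.90 ± 0.18 from day 3 to day 7 (adjusted p = 0.00099).

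The TRAF genes did not move as 1 group. Traf3, which restrains noncanonical NF-kB signalling and takes part in interferon induction, was at 16.5, 14.8 and 9.60 at day 0, 34.1, 29.8 and 32.3 at day 3, 19.2, 14.8 and 13.3 at day 7, and 21.7, 23.2 and 20.5 at day 30. Traf6, the ubiquitin ligase used by CD40, RANK and Toll-like receptors, was at 30.2, 36.4 and 31.1 at day 0, 58.7, 62.3 and 66.8 at day 3, 36.8, 28.4 and 43.2 at day 7, and 44.1, 44.0 and 45.9 at day 30. In both genes every day 3 library lay above every other library, and every day 30 library above every day 0 library. Traf3 rose by 1.21 ± 0.20 (limma, adjusted p = 0.00017) and Traf6 by 0.92 ± 0.16 (adjusted p = 0.00024) at day 3, and they fell by 0.99 ± 0.20 (adjusted p = 0.00097) and 0.79 ± 0.16 (adjusted p = 0.00095) from day 3 to day 7. At day 30 against day 0, Traf3 did not pass, at 0.67 ± 0.20 (adjusted p = 0.06).

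Traf2, which brings Birc2 and Birc3 to TNF receptors, lay between 6.75 and 10.2 in all 12 libraries and passed no test (4-group test by limma, adjusted p = 0.511). Traf1 at 10.3 to 18.5, Traf4 at 0.543 to 3.12 and Traf5 at 2.92 to 7.57 passed no test either, so that 10 of the 40 tested members passed none. Traf7 was at 14.6 to 19.4 at day 0 and 23.8 to 26.2 at day 3 and was higher by 0.53 ± 0.21 at an adjusted p of 0.04997. That call was lost without any 1 of 10 libraries, every library but the second and the third of day 7 (adjusted p up to 0.176).

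Among the death domain adaptors, Fadd, which joins death receptors to caspase 8, was at 16.8, 13.6 and 14.3 at day 0, 16.3, 12.6 and 13.6 at day 3, 20.4, 37.1 and 23.4 at day 7, and 13.6, 15.1 and 11.9 at day 30. All day 7 libraries lay above all others. Fadd was higher at day 7 by 0.77 ± 0.21 than at day 0 (limma, adjusted p = 0.018) and by 0.84 ± 0.21 than at day 3 (adjusted p = 0.0046), and fell by 0.90 ± 0.21 from day 7 to day 30 (adjusted p = 0.0043; 0.117 with day 30 as 1 sample). The day 7 against day 0 call was lost without the second (0.72, adjusted p = 0.0626) or the third (0.75, 0.0559) day 0 library or the second day 7 library (0.53, 0.0536). Tradd, the TNFR1 adaptor, was at 3.43, 3.35 and 3.08 at day 0, 5.27, 4.96 and 8.47 at day 3, 3.03, 8.67 and 5.11 at day 7, and 3.20, 2.69 and 2.28 at day 30. It passed the test over 4 groups (adjusted p = 0.0359) but not day 3 against day 0, at 0.72 ± 0.30 (adjusted p = 0.061).

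Birc3, a target of NF-kB that also acts in its pathway, was at 86.3, 66.4 and 56.5 at day 0, 95.6, 124 and 113 at day 3, 54.2, 44.0 and 48.9 at day 7, and 121, 112 and 123 at day 30. Day 3 and day 30 lay above day 0, and day 7 below it, with no overlap. Birc3 differed from day 0 by 0.67 ± 0.16 at day 3 (limma, adjusted p = 0.0037), -0.48 ± 0.16 at day 7 (0.048) and 0.78 ± 0.16 at day 30 (0.011). From day 7 to day 30 it rose by 1.26 ± 0.16 (adjusted p = 8.3e-05) and from day 3 to day 7 it fell by 1.16 ± 0.16 (adjusted p = 5.2e-05). The day 30 against day 0 call of Birc3 was lost without the second (0.76, adjusted p = 0.0585) or the third (0.64, 0.0642) day 0 library or the first (0.76, 0.0586) or the third (0.75, 0.0653) day 30 library, and with day 30 as 1 sample (0.477). The day 7 against day 0 call was lost without any 1 of 9 libraries, all but the third of day 0, the first of day 3 and the first of day 7 (up to 0.189, without the first of day 0). Quantile normalisation ended the day 3 call (0.32, 0.0959).

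Birc2, the neighbouring gene on chromosome 9, also had its lowest mean at day 7. Its signal was 23.8, 29.4 and 24.3 at day 0, 34.9, 40.6 and 38.7 at day 3, 18.8, 12.3 and 27.3 at day 7, and 35.4, 36.3 and 33.9 at day 30. Birc2 fell by 1.0 ± 0.22 from day 3 to day 7 (limma, adjusted p = 0.0017) and rose by 0.89 ± 0.22 from day 7 to day 30 (adjusted p = 0.0053; 0.128 with day 30 as 1 sample). At day 3 against day 0 it did not pass, at 0.55 ± 0.22 (adjusted p = 0.053).

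**Figure D4:**
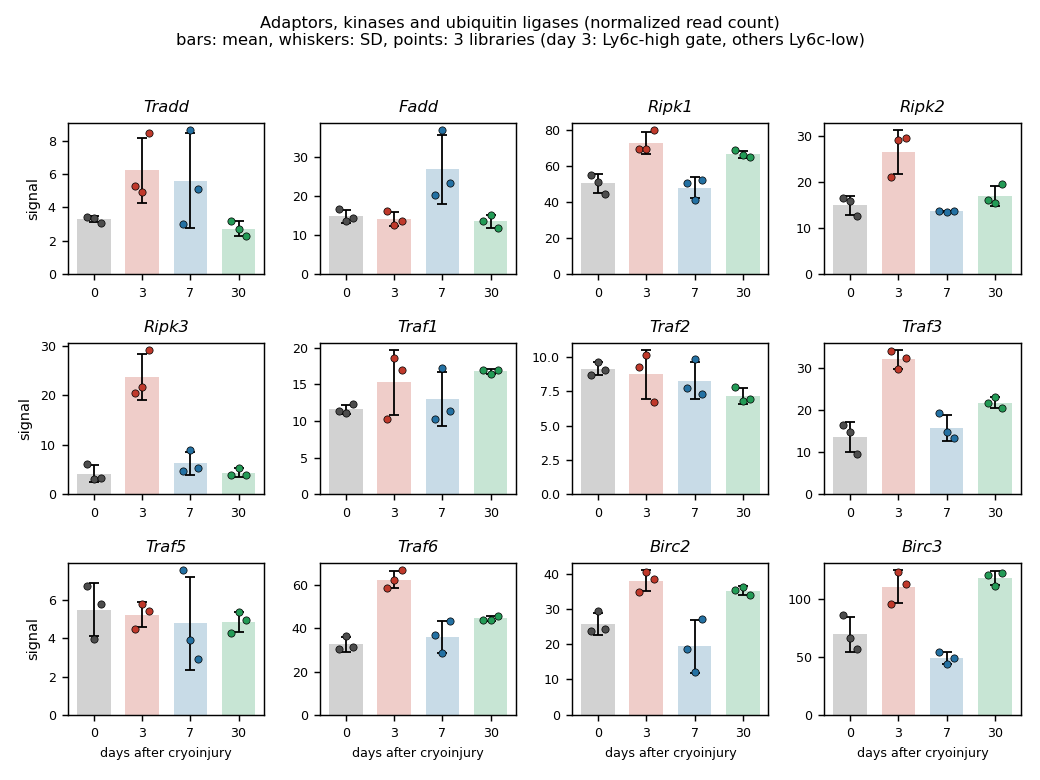
Signal (normalised read count, vertical axis) of 12 adaptors, kinases and ubiquitin ligases by days after cryoinjury (horizontal axis); bars are means of 3 libraries, whiskers SD and points libraries. Ripk3, Traf3 and Traf6 are highest at day 3, Fadd at day 7, and Birc2 and Birc3 are high at both day 3 and day 30.

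A further 76 genes that act around these receptors were listed, of which 70 were in the table and 66 tested. At day 3 against day 0, 30 were higher and 4 lower, so that 51.5% passed against 44.2% of all genes (22.1% higher and 22.1% lower). Their median log2 fold change was 0.575, beside -0.019 over all genes. The largest rises were those of Daxx, a Fas-binding and chromatin protein (21.6, 13.5 and 12.9 at day 0 against 126, 249 and 244 at day 3), Mlkl, the executor of necroptosis (2.77, 4.51 and 4.53 against 33.2, 38.6 and 45.7), Ikbke, an IKK-related kinase (1.58, 5.77 and 2.90 against 29.5, 27.2 and 26.3), and Trafd1, a feedback regulator of innate signalling (111, 64.2 and 62.1 against 287, 471 and 433). Daxx rose by 3.58 ± 0.25, Mlkl by 3.04 ± 0.23, Ikbke by 2.81 ± 0.30 and Trafd1 by 2.33 ± 0.24. The genes that fell were the deubiquitinases Otud7b (by 1.56 ± 0.27) and Usp21 (by 1.09 ± 0.24) and the kinases Mapk14 (by 0.88 ± 0.14) and Map3k5 (by 0.50 ± 0.17). Thus Ripk3 and its substrate gene Mlkl were both higher at day 3. The Map3k5 call was lost without the first (adjusted p = 0.115) or the third (0.0632) day 0 library or the third day 3 library (0.102).

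From day 3 to day 7, 31 of the 66 were lower and 7 higher (57.6%), against 46.8% of all genes (23.5% lower and 23.3% higher). The median was -0.425, beside 0.04 over all genes. Daxx fell by 2.85 ± 0.25, Mlkl by 2.32 ± 0.23, Zfp36 by 2.18 ± 0.43 and Trafd1 by 2.00 ± 0.24. The largest rises were those of Timp3 (1.64 ± 0.64), an inhibitor of TNF-converting enzyme, Eda (1.15 ± 0.38), another ligand of the family, Tnfaip8l2 (1.10 ± 0.19) and Usp21 (1.06 ± 0.24). Timp3 and Eda are also made by stromal and epithelial cells, and 9 of 10 fibroblast markers were higher at day 7 than at day 3; their part was not tested. Eda averaged 0.829, 0.418, 2.45 and 0.829 at days 0, 3, 7 and 30 and reached the minimum mean signal only through day 7, so its rise there was partly fixed by the minimum and is given as a description. The Timp3 call was lost without any 1 of 8 libraries, every library of day 3 and day 30 and the first or the second of day 7 (adjusted p = 0.0552 to 0.174), and that of Eda without the first (0.0513) or the third (0.0538) day 3 library or the second day 7 library (0.099).

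Against day 0, 8 pathway genes were higher and 6 lower at day 7, a share of 21.2% beside 21.6% of all genes. Ikbke was higher by 1.85 ± 0.30, Tnfaip2 by 1.31 ± 0.18, Tnip1, an A20-binding inhibitor of NF-kB, by 1.09 ± 0.17, and Fam105b (Otulin, which removes linear ubiquitin) by 0.85 ± 0.21. Lower were Otud7b at -1.21 ± 0.27, Tnip2 at -0.88 ± 0.25, Map3k8 at -0.79 ± 0.18 and Cflar, the caspase 8 inhibitor, at -0.54 ± 0.18. The Tnip2 call was lost without the first day 0 library (adjusted p = 0.0885) or the second day 7 library (0.0751). The Cflar call was lost without any 1 of 9 libraries, all but the third of day 0 and the first of day 3 and of day 7 (adjusted p = 0.0527 to 0.156).

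At day 30 against day 0, 7 of 66 pathway genes (10.6%) were higher and none lower, against 6.18% of all genes in either direction. This count was 3 or 4 without the second or the third day 0 library or any day 30 library, and 14 without the second day 7 library. Tnfaip3 (A20), the ubiquitin editor that ends TNF signalling, was at 301, 47.9 and 62.5 at day 0 and 477, 469 and 481 at day 30. Rel (c-Rel), an NF-kB subunit, was at 112, 53.8 and 56.1 at day 0 and 207, 210 and 215 at day 30. Tnip3, a partner of A20, was at 5.41, 5.98 and 7.24 against 25.7, 25 and 25.4. In all 3 genes the groups did not overlap, and for Tnfaip3 and Rel the first day 0 library lay nearest to day 30. Tnfaip3 rose by 2.28 ± 0.45 (limma, adjusted p = 0.00871), Tnip3 by 1.88 ± 0.22 (adjusted p = 2.0e-04), Rel by 1.58 ± 0.26 (adjusted p = 0.00238) and Zfp36, which destabilises Tnf mRNA, by 1.85 ± 0.43 (adjusted p = 0.0186). The call of Tnfaip3 was lost without the second day 0 library (1.78, adjusted p = 0.0517), and that of Zfp36 without the second or the third day 0 library or any day 30 library (0.0688 to 0.101), by edgeR (0.073) and by DESeq2 (0.0956). All 4 calls were lost with day 30 as 1 sample, at adjusted p of 0.371 for Tnfaip3, 0.0692 for Tnip3, 0.205 for Rel and 0.483 for Zfp36.

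Between day 7 and day 30, 20 pathway genes were higher and 9 lower at day 30 (43.9%), against 39.6% of all genes. Tnfaip3 rose by 2.74 ± 0.45, Zfp36 by 2.01 ± 0.43, Rel by 1.66 ± 0.26 and Tnip3 by 1.48 ± 0.22, and Ikbke fell by 1.39 ± 0.30, Tnfaip8l2 by 1.34 ± 0.19, Fam105b by 1.13 ± 0.21 and Tab1 by 0.90 ± 0.26. The Tab1 call was lost without the second day 7 library (-0.63, adjusted p = 0.0545). The calls of Zfp36 (0.0728), Ikbke (0.0757), Fam105b (0.0589) and Tab1 (0.195) were lost with day 30 as 1 sample. In the 4-group test 45 of 66 passed (68.2%), against 63.9% of all genes.

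The members higher at day 30 than at day 0 were thus Tnf, Tnfsf9, Tnfsf8 and Birc3. With day 30 counted as 1 sample, their differences from day 0 were 0.93, 2.04, 1.26 and 0.78 in that order. These calls were lost in that fit, which called few of all genes against day 0. The list of early response genes was added after the data were seen, so its values are a description only. Of these 13 genes, 5 were higher at day 30 than at day 0, against 3.45% of all genes. Early response genes higher at day 30 than at day 7 were 12 of 13, against 19.7% of all genes, and none were lower in either. Their sum was highest at day 30 and in the first day 0 library, the day 0 library with the most Tnf, Tnfsf9, Birc3, Tnfaip3 and Rel. That library also stood apart from the other day 0 libraries in mitochondrially encoded genes (22 genes, sum 196122 against 425206 and 470741, with 192390 to 200783 at day 30), in endothelial markers (11.5 against 130 and 102, with 22.3 to 25.4 at day 30) and in T and NK cell markers (29.6 against 207 and 144, with 17.1 to 21.2 at day 30). The part of all these in the differences was not tested.

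**Figure D5:**
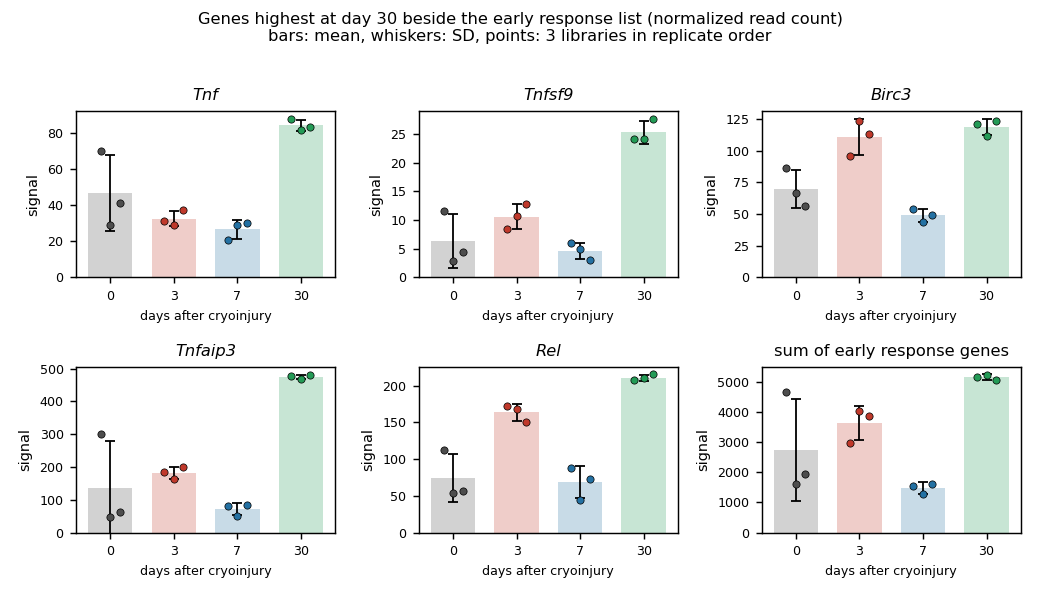
Signal (normalised read count, vertical axis) of Tnf, Tnfsf9, Birc3, Tnfaip3 and Rel and the summed signal of 13 early response genes by days after cryoinjury (horizontal axis); bars are means of 3 libraries, whiskers SD and points libraries in replicate order. In each panel the first day 0 point lies above the other day 0 points, and the day 30 points lie close together.

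Members on the same side of the pathway could differ in time. Among the ligand and receptor pairs measured here, Tnfsf12 was lower at day 3 than at day 0 while Tnfrsf12a was highest at day 3. Tnf was highest at day 30 while Tnfrsf1b was higher at day 3 and day 7 than at day 0. Tnfsf13b and Tnfrsf17 were low together at day 3, and T and NK cell marker sums were low there too, at 6.49 to 12.9 against 29.6 to 207 at day 0. Mast cell markers fell from sums of 22.5 to 38.9 at day 0 to 0.575 to 0.794 at day 3, with Cpa3, Cma1, Mcpt4 and Tpsb2 at 0 in every day 3 library. At day 30 the mast cell sums were 2.54 to 3.61 and the T and NK cell sums 17.1 to 21.2, all below day 0. Dendritic cell marker sums were 44.3 to 67.3 at day 0, 15.6 to 39.8 at day 3, 53.3 to 89.8 at day 7 and 86.9 to 95.3 at day 30. The marker Cd209a alone averaged 19.6 at day 0, 8.37 at day 3, 31.9 at day 7 and 50.5 at day 30. Of the 8 dendritic cell markers, 1 was higher at day 30 than at day 0 and 0 lower, against 3.45% and 2.73% of all genes. Tnfsf13b, Tnfsf18, Tnfrsf17 and Tnfrsf22 did not differ between day 30 and day 0 beyond the threshold. The part of these cells in the low values of Tnfsf13b, Tnfsf18, Tnfrsf17 and Tnfrsf22 was not tested.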

How the data were processed

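RNA sequencing was analysed in 12 libraries, 3 each of day 0, day 3, day 7 and day 30. Per the submitters' processing notes, cutadapt 1.3, RSEM 1.2.20, edgeR 3.14.0 and build GRCm38 were used; strand use is not given in the sources used here. The signal deposited by the authors is a linear normalised read count. The log2 columns deposited by the authors equalled the log2 of the signal with values below 1 set to 1 and were not tested. Dividing each library's signal by its step gave whole reads for 100% of values within 0.02 reads.

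For the 12879 genes whose signal averaged 1 or more, log2(signal + 1) was fitted with limma 3.58.1 in R 4.3.3 (trended variance prior, 4 group means, 8 residual degrees of freedom, two-sided, Benjamini-Hochberg within each comparison, 0.05), tested on simulated data. The edgeR 4.0.16 quasi-likelihood test and DESeq2 1.42.0 were run on recovered reads. Same-numbered libraries did not deviate together, so none were paired. Coordinates and exon lengths are from GENCODE M21 (GRCm38).

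Named members were up to 12 rises and 12 falls per comparison and a fixed set (Tnf, both TNF receptors, Tradd, Fadd, Ripk1, Traf2, Traf6, Birc2, Birc3, Fas and Cd40); pathway genes were the 4 largest changes each way. Members and lists were chosen with earlier results of these data known; the 13 early response genes were added after the data were seen. Other marker lists were fitted in the same way. Sums over all libraries ran from 11.5 to 134 for 7 endothelial markers and from 15.6 to 95.3 for 8 dendritic cell markers. Alternatives were pseudocounts of 0.1 and 5, quantile normalisation, no minimum signal or a minimum mean of 5, a replicate block, a fit of the compared groups alone, leaving out each library or the first day 0 and second day 7 libraries together, and day 30 as 1 sample.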

Additional observations from a re-analysis of the deposited data

How the results depend on the processing

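No called member changed direction under any alternative. Of 74 calls of members over the 5 comparisons, 35 were kept in every alternative that gave a value, 51 without each library in turn, 71 by edgeR, 74 by DESeq2 and 70 with the replicate block. Members passing with the replicate block numbered 22, 9, 5, 21 and 17 (comparisons in the order day 3, 7 and 30 against day 0, day 7 against day 3, day 30 against day 7) and 29 over the 4 groups; replicate numbers did not pair libraries (median r of same-numbered deviations 0.0049 in 18 pairs, -0.0831 to 0.21; 6 of 12 libraries correlated best with their own number).

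Counts of calls moved most at day 30 against day 0, where 796 of all genes, 4 members and 7 pathway genes passed: 2674, 11 and 17 with the compared groups fitted alone, 2513, 10 and 22 without the first day 0 and second day 7 libraries together, 14, 0 and 0 with day 30 as 1 sample, and 235 to 1990, 1 to 8 and 3 to 14 without 1 library; DESeq2 called 1328 of all genes. At day 7 against day 0 (2782, 11 and 14), the compared groups alone gave 1158, 3 and 4, day 30 as 1 sample 1740, 7 and 9, and leaving out 1 library 6 to 13 members; a mean signal of at least 5 gave 6 members. At day 30 against day 7, day 30 as 1 sample gave 815 of all genes, 3 members and 6 pathway genes. Quantile normalisation gave 5 higher and 1 lower member at day 30 against day 0, where the main split was 4 and 0. The causes were not tested. Of 36 named pathway calls, 15 were lost in some alternative. Depth limits Tnfrsf17, Tnfsf18, Tnfsf13b and the members that were not tested, which rest on few reads. Reads were also few for Tnfsf8 and Tnfsf14 at day 0 (14 and 17 in all) and for Tnfrsf22 at day 3 and day 7 (38 and 26).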
